A study of Mus musculus with 8 samples.

Results

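Igf1 encodes insulin-like growth factor 1, a secreted peptide, and the regions described here are all the accessible chromatin regions that the deposited table assigns to Igf1 by its gene name. They number 28 of 129304 regions, each 800 bp wide, and lie on chromosome 10 between 87690624 and 87911225 (mm10), a span of 221 kb. Each was measured by ChIP-seq, the sequencing of immunoprecipitated chromatin, for acetylation of histone H3 at lysine 27 (H3K27ac). The libraries came from brain nuclei of C57BL/6 mice aged 2 years, either wild type (WT) or without Grn (GrnKO). Progranulin, the product of Grn, is secreted and also acts in lysosomes, and the labels used here name no further allele or agent in either genotype. Nuclei of perfused, frozen hemibrains were sorted as PU.1 positive, OLIG2 negative and NEUN negative, and each library came from nuclei of 2 mice pooled together. Each genotype had 2 H3K27ac libraries and 2 input libraries, the latter being sheared chromatin sequenced without immunoprecipitation. Igf1 was picked for its difference between GrnKO and WT in these same libraries, so that difference is only described below. Its regions also entered fits over all regions of the table, and whether they passed there is given as description only.

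H3K27ac marks nucleosomes beside active promoters and enhancers, and the acetylated stretches of a gene often include distant elements as well as its start sites. IGF1 binds the receptor tyrosine kinase IGF1R and acts through insulin receptor substrates, PI3K and AKT, while binding proteins in the extracellular space limit its access to the receptor. In brain, microglia are one source of IGF1, and Igf1 belongs to the genes known to be raised in the microglial states of ageing, demyelination and neurodegeneration. Igf1 is transcribed from alternative leader exons, and the regions of the table were assigned to start sites at 87858265, 87859052 and 87861111. Distances below are counted from the start site at 87859052, with negative values upstream.

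The H3K27ac libraries held 15491642.5 to 20030832 tags and the inputs 4078179 to 14415969 tags. WT replicate 1 stood apart, with 49.4% of its tags in the listed regions against 63.3% to 65.7% in the other 3 H3K27ac libraries. Values are scaled tags, which are tags per 10000000 in a library, unless a value is said to be TMM-scaled. TMM scaling also corrects for such differences in the tag share. Log2 changes in H3K27ac between genotypes were taken after TMM scaling unless said otherwise, so they can differ from ratios of scaled tags. Summed over its regions, Grn held 1891 and 1938 scaled tags in WT and 170 and 175 in GrnKO, as the labels have it. Chromosome Y regions summed to 131 and 138 scaled tags in replicate 1 of WT and GrnKO, and to 403 and 306 in replicate 2, while the Xist regions summed to 81.7 and 128 against 0 and 5.49. The replicate numbers thus differed in these sums in the same direction in both genotypes. All 10 microglial markers looked for had enough tags to be tested, and 3 of 6 neuronal markers did not.

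One stretch of sequence at Igf1 was held in the RefSeq promoter table (GRCm38.p6), and it is shown because it lies inside a promoter region whose acetylation is given below. It covers the 250 bases before the start site at 87861111, chr10:87860861-87861110 on the plus strand, within the region chr10:87860556-87861356. Capitals mark GAGGAA, the core of the motif of PU.1, the myeloid factor used for the sort, and TGAATCA, a match to the AP-1 motif TGANTCA.

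Igf1 promoter: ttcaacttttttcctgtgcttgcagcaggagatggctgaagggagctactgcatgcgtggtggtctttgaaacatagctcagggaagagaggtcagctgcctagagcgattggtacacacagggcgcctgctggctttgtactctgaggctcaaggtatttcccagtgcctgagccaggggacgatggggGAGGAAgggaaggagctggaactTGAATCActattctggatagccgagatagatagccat

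The GAGGAA match began 60 bp and the TGANTCA match 37 bp before the start site. Both strands of 300 bases, 250 before and 50 after a start site, were searched in 32851 promoters, and 28.3% of them held GAGGAA and 7.81% held TGANTCA. The E-boxes CACGTG and CATGTG, letters bound by MITF and TFE factors, had no match in this window, against 7.15% and 14.2% of all promoters. These matches describe the letters of the window and were not tied to any binding measurement.

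Summed over the 28 regions, H3K27ac at Igf1 came to 546 (replicate 1) and 610 (replicate 2) scaled tags in WT, against 2335 (replicate 1) and 1897 (replicate 2) in GrnKO. Where values are given in pairs, replicate 1 comes before replicate 2. Both GrnKO libraries lay above both WT libraries, and the gap between the genotypes was wider than the gap between replicates of either. The means were 578 ± 45.4 in WT and 2116 ± 310 in GrnKO (SD, n = 2), a ratio of 3.66. TMM scaling gave 647 and 588 in WT against 2191 and 1773 in GrnKO, with a log2 change of 1.68 (SE 0.12). By the same scaling the sum ranked 2352 in WT and 668 in GrnKO among 15380 tested genes, so that 84.7% and 95.7% of genes had lower sums. The number of regions enters these ranks, since the median gene had 4 regions and 647 genes had 28 or more. In bulk nuclei, more acetylation per nucleus cannot be told apart from more nuclei that carry it.

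Because 10 of the 28 regions overlapped the one before, a tag can be counted more than once in the sum. A set of 22 regions without overlap summed to 369 and 394 scaled tags in WT and 1459 and 1178 in GrnKO, a ratio of 3.46. The 20 regions more than 1000 bp from a start site gave 296 and 306 in WT against 1153 and 938 in GrnKO, a ratio of 3.47. The 8 regions within 1000 bp of a start site gave 250 and 304 in WT against 1183 and 959 in GrnKO, a ratio of 3.86. With overlaps counted, distal and promoter regions each carried a like part of the sum, and the genotypes did not overlap in either set. Only 4 of the 8 promoter regions belong to the set without overlap, so repeated counting enters the promoter part more than the distal part.

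**Figure D1:**
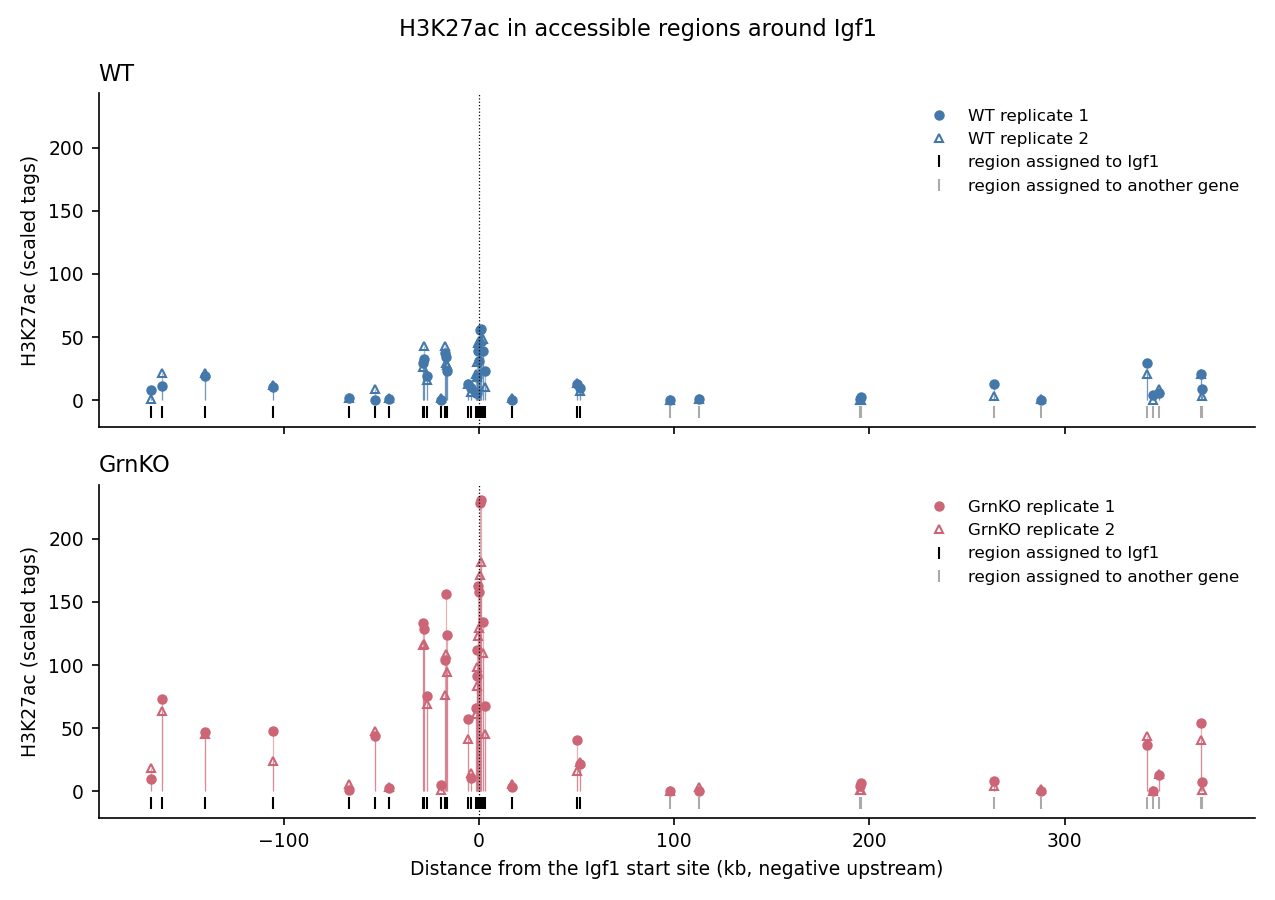
H3K27ac in scaled tags (vertical axis) of accessible regions around the Igf1 start site (horizontal axis, kb), with WT above and GrnKO below. Circles are replicate 1 and triangles replicate 2, and ticks under the axis mark regions assigned to Igf1 (black) or, on the downstream side, to other genes (grey). The highest GrnKO values sit at the start sites, where WT values stay below 60.

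The 28 regions were put into 8 position groups by distance alone. The far upstream group held 4 intergenic regions from -168.0 to -105.4 kb. Region chr10:87690624-87691424, at -168.0 kb, had 8.39 and 0.54 scaled tags in WT and 10.1 and 18.7 in GrnKO. Its inputs reached 11.1 and 20.4 in GrnKO and 0 in both WT libraries, so its GrnKO H3K27ac values were no higher than the GrnKO inputs. At -162.4 kb, chr10:87696280-87697080 had 11.0 and 21.2 in WT and 72.8 and 63.9 in GrnKO, with both GrnKO values above both WT values and a log2 change of 1.87 (SE 0.36). At -140.2 kb, chr10:87718403-87719203 had 19.4 and 21.7 in WT and 46.8 and 45.2 in GrnKO, although its WT replicate 2 input alone held 20.3. At -105.4 kb, chr10:87753275-87754075 had 10.3 and 11.9 in WT against 47.4 and 24.2 in GrnKO. The GrnKO replicates of that last region differed from each other more than the WT replicates did.

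Between -66.5 and -46.1 kb lay 3 intergenic regions, and 2 of them were near the floor of 3 tags, which is 1.5 to 1.94 scaled tags in these libraries. Region chr10:87792145-87792945 held 1.94 and 1.63 in WT and 1.22 and 5.49 in GrnKO, and chr10:87812520-87813320 held 1.29 and 1.63 against 2.75 and 3.24. The region between them, chr10:87805554-87806354 at -53.1 kb, had the highest ratio of GrnKO to WT among the tested regions. It held 0.32 and 8.95 scaled tags in WT and 43.7 and 47.4 in GrnKO, a ratio of 9.83 and a log2 change of 3.56 (SE 0.73). The WT replicates of that region were far apart, replicate 1 holding 0.5 tags and replicate 2 16.5 tags, and its place as the highest depended on them. Without WT replicate 1 its log2 change was 2.17, below the 3.23 of the region at -168.0 kb, and without WT replicate 2 it was 4.95. It passed in limma and did not pass in DESeq2.

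A group of 3 regions stood between -28.8 and -26.7 kb, and its first members overlap by 208 bp. Region chr10:87829833-87830633 held 29.7 and 26.6 scaled tags in WT and 133 and 116 in GrnKO, with a log2 change of 1.88 (SE 0.28). Region chr10:87830425-87831225 held 32.3 and 43.1 in WT and 129 and 117 in GrnKO. Region chr10:87831927-87832727 held 19.4 and 15.7 in WT and 75.2 and 69.1 in GrnKO. All 6 GrnKO values in this group lay above all 6 WT values. The first member is annotated in an MLT1G1 repeat and the second in an LTR16A repeat, both relics of long terminal repeat elements, and 14.9% of all regions of the table are annotated in a repeat.

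A further group, from -19.4 to -16.3 kb, had 3 overlapping regions with high values and 1 region, chr10:87839262-87840062, with at most 5.20 scaled tags in any H3K27ac library. Region chr10:87841365-87842165 held 37.4 and 42.6 in WT and 104 and 76.1 in GrnKO. Region chr10:87841875-87842675 held 33.9 and 29.6 in WT and 156 and 109 in GrnKO, and chr10:87842312-87843112, annotated in an L1MA5 repeat, held 22.9 and 27.7 against 124 and 94.3. Thus neighbouring regions differed in their ratios of GrnKO to WT, which were 2.25, 4.18 and 4.32 in the order of the regions, while replicate 1 was the higher GrnKO library in each. Among the 28 regions, the one at -17.3 kb had rank 5 by WT level and rank 11 by GrnKO level, and the one at -16.8 kb had rank 8 and rank 5. Closer to the gene, chr10:87853115-87853915 at -5.5 kb held 12.6 and 12.8 in WT against 57.2 and 41.7 in GrnKO. The region at -4.4 kb, chr10:87854208-87855008, held 9.36 and 6.51 in WT and 10.4 and 14.7 in GrnKO, a log2 change of 0.39 (SE 0.63) that was smaller than its error and the smallest among the tested regions.

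**Figure D2:**
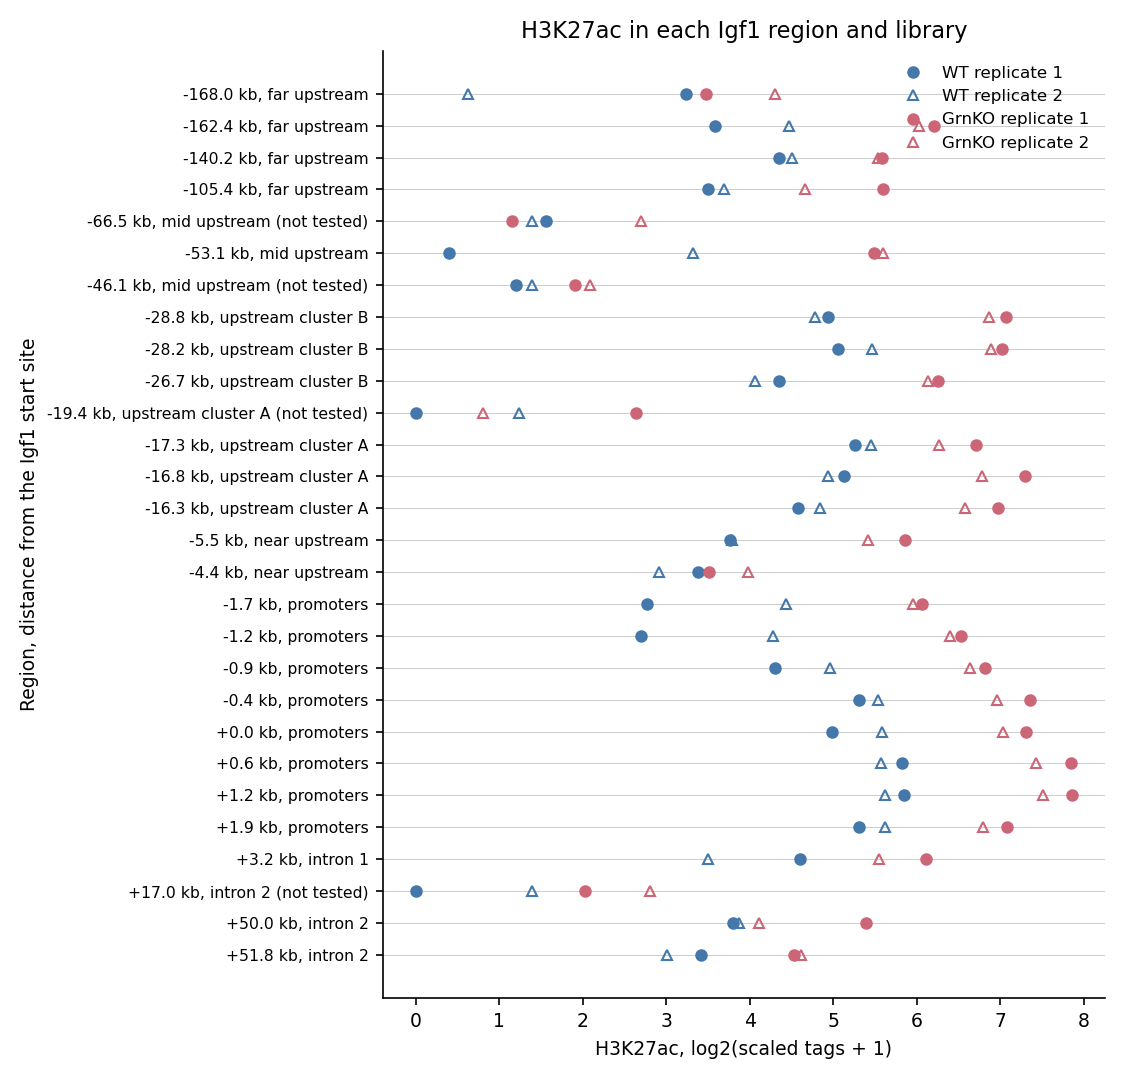
H3K27ac of the 28 Igf1 regions, in order of position, as log2(scaled tags + 1) in each library; blue is WT, red is GrnKO, filled circles are replicate 1 and open triangles replicate 2. Both GrnKO values lie above both WT values in 26 of the 28 regions, as they do in 35.8% of all tested regions. With TMM scaling the count is 23, against 27% of all tested regions. The gaps are narrow at -168.0, -4.4 and 50.0 kb and in the low regions.

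The promoter group held 8 regions in an unbroken chain of overlaps from -1.7 to 1.9 kb around the 3 start sites. The most upstream of them, chr10:87856995-87857795, held 5.81 and 20.6 scaled tags in WT and 65.8 and 61.2 in GrnKO. Next to it, chr10:87857412-87858212 held 5.49 and 18.5 in WT and 91.4 and 83.1 in GrnKO, a ratio of 7.29 and a log2 change of 2.77 (SE 0.42). In both of these regions WT replicate 1 was below WT replicate 2 by more than 10 scaled tags, and the GrnKO libraries were close together. Further along, chr10:87857788-87858588 held 18.7 and 30.1 in WT and 112 and 98.6 in GrnKO. Region chr10:87858219-87859019 held 38.7 and 45.3 in WT against 163 and 123 in GrnKO. The start site at 87859052 lies in chr10:87858661-87859461, which held 30.7 and 46.9 in WT and 158 and 130 in GrnKO. In these 3 regions the lowest GrnKO value, 98.6, was above the highest WT value, 46.9.

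The highest levels of the locus in both genotypes were just downstream of that start site. Region chr10:87859230-87860030, annotated in intron 1 of an Igf1 transcript, held 55.5 and 46.7 scaled tags in WT and 229 and 172 in GrnKO. Region chr10:87859885-87860685, annotated as a promoter, had rank 1 of the 28 in both genotypes, with 56.5 and 48.0 in WT and 231 and 181 in GrnKO, a log2 change of 1.73 (SE 0.24). The region that holds the printed promoter, chr10:87860556-87861356, had 38.7 and 48.3 in WT and 134 and 110 in GrnKO, a log2 change of 1.24 (SE 0.25). It had rank 3 in WT and rank 8 in GrnKO. As a group, the promoter regions held 47.8% ± 2.87 of the Igf1 sum in WT and 50.6% ± 0.0764 in GrnKO (SD, n = 2), with overlaps counted in each region, so their share differed by less than 1 SD of the WT replicates.

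Inside the gene, chr10:87861840-87862640 at 3.2 kb, in intron 1 of the transcript from the start site at 87861111, held 23.2 and 10.3 scaled tags in WT and 67.9 and 45.7 in GrnKO. In intron 2 of that transcript, chr10:87875661-87876461 at 17.0 kb held 0 and 1.63 in WT and 3.06 and 5.99 in GrnKO, with both WT values at or under the floor of 3 tags. At 50.0 kb, chr10:87908637-87909437 held 12.9 and 13.6 in WT and 41.0 and 16.2 in GrnKO, and at 51.8 kb chr10:87910425-87911225 held 9.68 and 7.05 against 22.02 and 23.5. The intron 2 group had a ratio of GrnKO to WT of 2.49, the lowest of the 8 groups. The highest was 6.59 in the group between -66.5 and -46.1 kb, which rests on 1 region well above the floor, and the other 6 groups lay between 3.01 and 3.86.

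**Figure D3:**
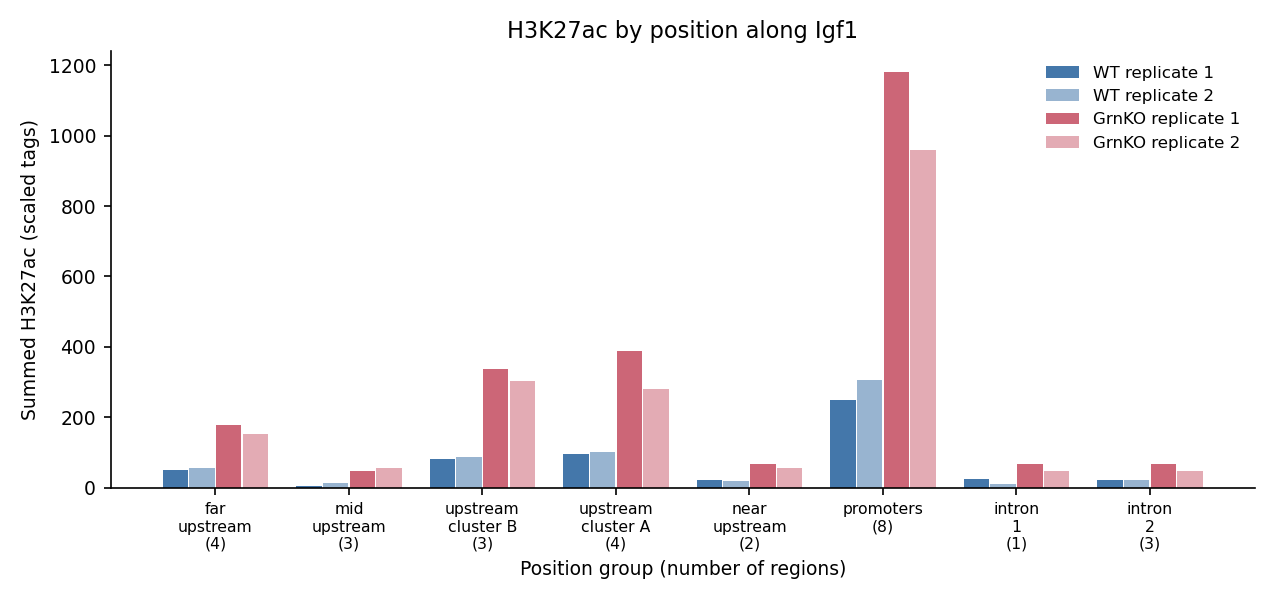
H3K27ac summed over the regions of each position group, in scaled tags from 0, with a bar for each library and the number of regions under each group. GrnKO bars are above WT bars in every group, and the promoter group reaches 959 to 1183 in GrnKO against 250 to 304 in WT.

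Of the 28 regions, 24 had enough tags to enter the fit over all regions, and the other 4 were the low regions at -66.5, -46.1, -19.4 and 17.0 kb. Log2 changes of the 24 ranged from 0.39 to 3.56 with a median of 1.69, against a median of -0.0020 over all 80728 tested regions. In limma with Benjamini-Hochberg adjustment over all tested regions, 18 of the 24 passed 0.05 as higher in GrnKO, where 6.8% of all tested regions did, and 0 passed as lower, where 2.92% did (9.71% in either direction). Of these regions 19292 had an unadjusted p under 0.05. Since Igf1 was picked from this contrast, nothing is read from that count. Both GrnKO values were above both WT values in 24 of the 24 in the authors' scaling, against 35.8% of all tested regions, and in 21 of the 24 with TMM scaling, against 27%. Just inside the threshold was the region at -17.3 kb and just outside it the region at -105.4 kb, whose values are given above. The 6 tested regions that did not pass were those at -168.0, -140.2, -105.4, -4.4, 50.0 and 51.8 kb. With TMM scaling 17 of the 24 passed as higher with a change of at least 2-fold (5.22% of all tested regions). In the authors' scaling 19 of the 24 passed as higher (8.15%). The number passing was 12 without GrnKO replicate 1, when 1810 of all regions passed as higher, and 21 without WT replicate 1, when 8809 did, against 5488 with all 4 libraries. No Igf1 region passed as lower in edgeR, DESeq2 or any other fit run.

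The pattern along the locus was similar in the genotypes. Across the 28 regions, log2 values of the WT mean and the GrnKO mean had a Pearson correlation of 0.95, against 0.82 between the WT replicates and 0.94 between the GrnKO replicates; regions share libraries and overlap, so these are descriptions over regions. Within GrnKO, replicate 1 was above replicate 2 in 20 of the 24 tested regions, with and without TMM scaling. Within WT, replicate 2 was above replicate 1 in 15 of the 24 in the authors' scaling, while replicate 1 was the higher in 17 of the 24 with TMM scaling. The order of the WT replicates at Igf1 thus depended on the scaling, and the order of the genotypes in the sum did not.

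The inputs, which the choice of Igf1 did not use, had few tags at the locus. Over the 28 regions they summed to 270 and 63.1 scaled tags in WT and 121 and 35.7 in GrnKO, from 110, 59, 175 and 17.5 tags. Of the 28 regions, 25, 19, 11 and 22 were at 0 in these libraries, in the same order. In WT input replicate 1, 109 of the 110 tags fell in the overlapping promoter regions at 1.2 and 1.9 kb, where that input held 110 and 157 scaled tags, more than the H3K27ac library of the same pool. The other 3 inputs held at most 4.16 there. Input sums at Igf1 differed by -0.97 on the log2 scale (SE 0.94) between GrnKO and WT, with an adjusted p of 1.00 in limma over 8111 genes, and by 0.065 without WT replicate 1. No gene passed in that comparison (0%), and 156 genes had an unadjusted p under 0.05.

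**Figure D4:**
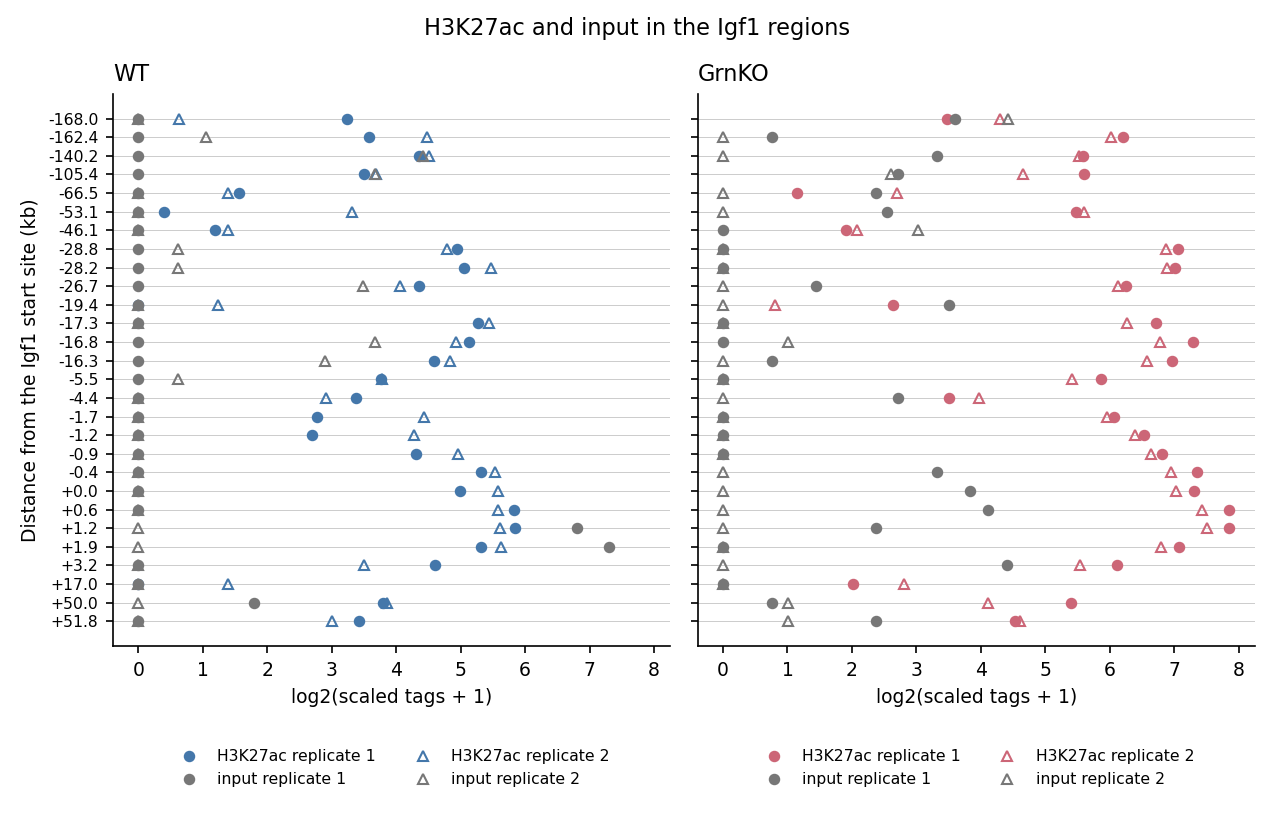
H3K27ac (coloured) and input (grey) of the 28 Igf1 regions as log2(scaled tags + 1), with WT on the left and GrnKO on the right, circles for replicate 1 and triangles for replicate 2. Most input points are at or near 0, and the 2 grey circles farthest right in WT are the regions at 1.2 and 1.9 kb in input replicate 1.

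Against the inputs, H3K27ac was higher in 16 of the 24 tested Igf1 regions in WT, where 67.1% of 86528 tested regions were, and in 19 of the 24 in GrnKO, where 66.5% were (limma over 8 libraries, adjusted p under 0.05). The choice of Igf1 used these H3K27ac values, so the counts and differences in this comparison are descriptions, and nothing is read from them. Of the regions above input, 14 passed in both genotypes, 5 in GrnKO alone and 2 in WT alone. This split was not tested, and the share of all regions in each class was not computed, so nothing is read from it. The regions with the WT input tags at 1.2 and 1.9 kb did not pass in WT, with H3K27ac above input by 2.33 and 1.82 on the log2 scale. In GrnKO the same regions were above input by 6.50 and 6.93. At -28.8 kb the mark was above input in both genotypes, by 4.55 in WT and 6.97 in GrnKO. At -168.0 kb it was above input in neither, with differences of 1.93 in WT and -0.12 in GrnKO. Leaving out either WT H3K27ac library lowered the count in WT to 10.

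Regions beside Igf1 that the table assigns to other genes were not part of the choice, and the table names the gene with the nearest start site, which need not be the gene a region acts on. Downstream, the next region after the intron 2 regions was 97.7 kb from the start site and assigned to Tyms-ps, a pseudogene, whose regions summed to 3.50 scaled tags or less in every H3K27ac library and were not tested.

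Within 1 Mb of the start site, 17 genes other than Igf1 had a region, and 13 of them were tested as sums over their regions. Of these, 5 were higher in GrnKO and 1 lower in limma with adjustment over all genes, where 9.54% of 15380 genes were higher and 4.88% lower. Gnptab, which encodes the phosphotransferase subunits that begin the mannose 6-phosphate tag of lysosomal enzymes, rose by 1.01 (SE 0.17, adjusted p = 0.000813 in limma), with 361 and 328 scaled tags in WT and 906 and 693 in GrnKO. Chpt1, a choline phosphotransferase of phosphatidylcholine synthesis, rose by 1.18 (SE 0.28, adjusted p = 0.0101 in limma). Its sums were 52.3 and 45.6 in WT against 147 and 111 in GrnKO. Mybpc1, a myosin-binding protein gene of muscle, rose by 0.75 (adjusted p = 0.0445 in limma), and Nt5dc3 rose by 0.70 (adjusted p = 0.0115 in limma). Utp20, whose product acts in ribosome assembly, fell by 1.22 on the log2 scale (adjusted p = 0.00237 in limma), from 135 and 154 scaled tags in WT to 71.0 and 69.4 in GrnKO. Genes that rose thus lay on both sides of Igf1, with genes that did not pass, such as Sycp3 and Arl1, among them. Without GrnKO replicate 1, 2 genes of the window passed as higher, when 745 of all genes did, against 1468 with all libraries.

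**Figure D5:**
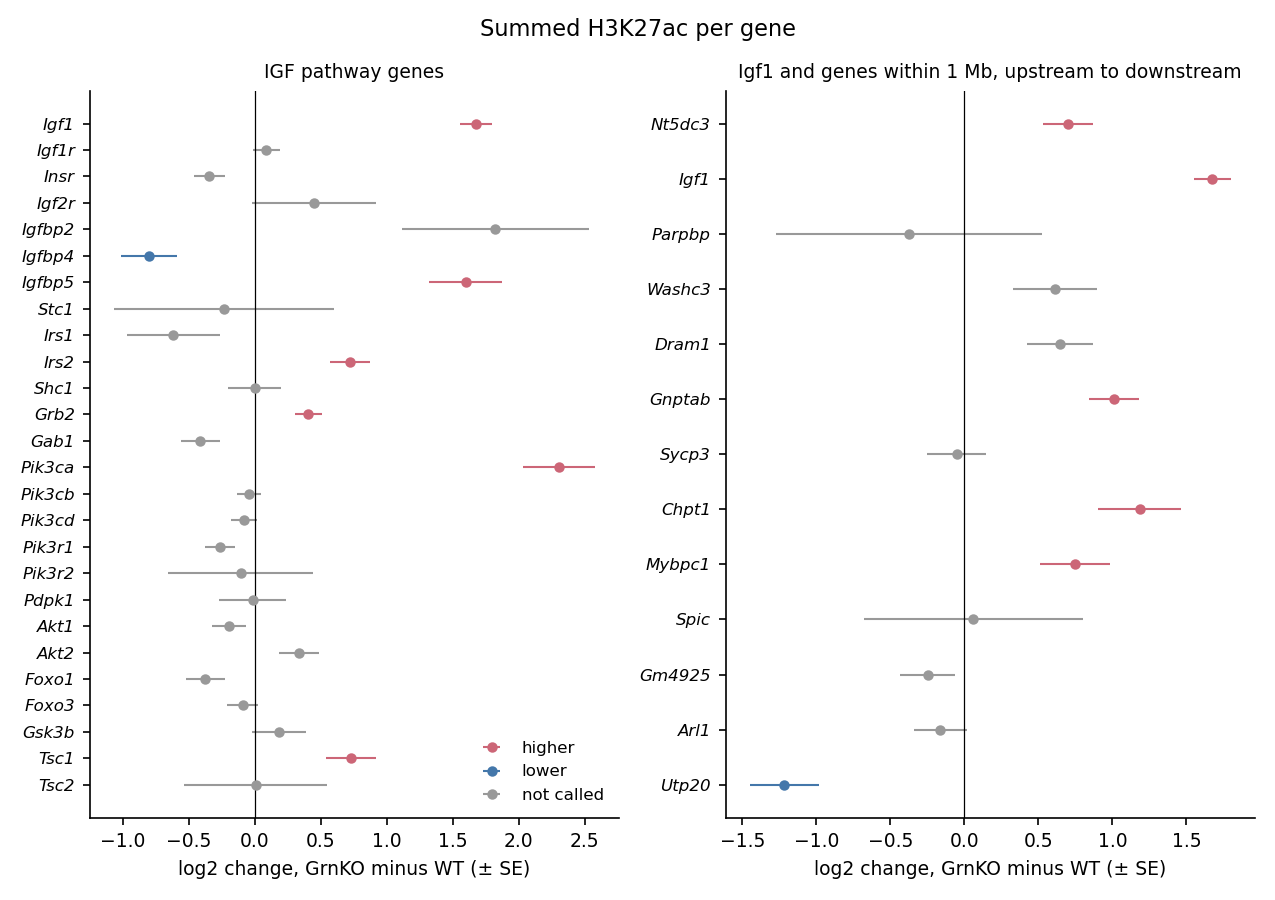
Log2 change of summed H3K27ac, GrnKO minus WT, with its SE, for tested IGF pathway genes (left) and for Igf1 and tested genes within 1 Mb in order along the chromosome (right). Red passed as higher, blue as lower and grey did not pass; Igf1 itself is shown as a description, at 1.68.

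The other genes of the pathway were taken by role, and the list was made with earlier results of these data known. Of 38 genes, 33 were in the table and 27 were tested, of which 5 passed as higher, 3 as lower and 19 did not pass, where 9.54% of all tested genes were higher and 4.88% lower. Their median log2 change was -0.04, against -0.0099 over all tested genes. The authors' scaling moved the median of all genes to 0.18, and with it 1 pathway gene passed as lower (1.08% of all tested genes). Among the ligands, Igf2 was near the floor, with 0.65 and 4.07 scaled tags in WT and 4.28 and 5.74 in GrnKO over 7 regions, and was not tested.

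The receptors did not pass. Igf1r, the receptor of IGF1, held 1220 and 1603 scaled tags in WT and 1747 and 1645 in GrnKO over 36 regions, a log2 change of 0.09 (SE 0.10, adjusted p = 0.66 in limma). Insr, the insulin receptor, held 761 and 1072 in WT and 802 and 820 in GrnKO, a change of -0.34 (SE 0.12, adjusted p = 0.071 in limma). Igf2r, which binds IGF2 and also carries lysosomal enzymes by their mannose 6-phosphate, held 43.9 and 17.1 in WT and 44.3 and 42.2 in GrnKO, a change of 0.45 (SE 0.47, adjusted p = 0.61 in limma). For Igf1r and Igf2r the change was smaller than its SE.

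Of 8 binding proteins 3 were tested, and 1 passed as higher and 1 as lower, beside the 9.54% and 4.88% of all tested genes. Igfbp5 rose by 1.60 (SE 0.28), from 48.4 and 39.6 scaled tags in WT to 167 and 141 in GrnKO. Its inputs held 44.1 and 18.2 in WT and 1.73 and 0 in GrnKO, so H3K27ac in WT replicate 1 was near its input. Igfbp4 fell by 0.80 on the log2 scale (SE 0.21), with 148 and 238 in WT and 116 and 130 in GrnKO, and did not pass in the authors' scaling (adjusted p = 0.137 in limma). Igfbp2, the other tested member, changed by 1.82 (SE 0.71), which did not pass (adjusted p = 0.107 in limma) but did in the authors' scaling (adjusted p = 0.0406 in limma). Igfbp1 and Igfbp3 had no region in the table.

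Among the adaptors that couple the receptor to PI3K and RAS, Irs2 rose by 0.72 (SE 0.15), with 342 and 352 scaled tags in WT and 706 and 603 in GrnKO. Grb2 rose by 0.41 (SE 0.10), with 1034 and 1240 in WT and 1756 and 1666 in GrnKO, and did not pass in the authors' scaling (adjusted p = 0.0933 in limma). Irs1, Shc1 and Gab1 did not pass. Pik3ca, the gene of a catalytic subunit of PI3K, rose by 2.31 (SE 0.27), the largest change of the pathway genes that passed. It held 29.4 and 52.6 in WT and 264 and 193 in GrnKO. Its inputs held 265 and 41.7 in WT and 22.2 and 67.3 in GrnKO, so WT replicate 1 had more in input than in H3K27ac. Pik3cb and Pik3cd, which encode other catalytic subunits, did not pass, with changes of -0.04 and -0.08. Tsc1, a brake on mTORC1, rose by 0.73 (SE 0.19), with 173 and 289 in WT and 484 and 369 in GrnKO, while Akt1, Akt2 and the other AKT targets did not pass. Without GrnKO replicate 1 the pathway counts were 2 higher and 1 lower, and those of all genes fell from 1468 to 745 higher and from 750 to 208 lower.

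Genes with the pattern most like Igf1 were found by the Euclidean distance between log2 sums centred over the 4 H3K27ac libraries. The nearest 5 were Rell1 (distance 0.0631), Ms4a7 (0.0784), Alpi (0.0969), Mief1 (0.104) and Tfr2 (0.108). Ms4a7, a membrane protein gene used as a marker of border macrophages, held 140 and 152 scaled tags in WT and 595 and 454 in GrnKO. With 4 libraries this measure mostly reflects the size of the change and the order of the GrnKO replicates.

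Border macrophages of the meninges and vessels also express Igf1 and pass a PU.1 sort, so their markers are given beside the Igf1 sum. The 6 markers summed to 966 and 971 TMM-scaled tags in WT and 1523 and 1315 in GrnKO, with no overlap. Ms4a7 and F13a1 passed as higher, where 9.54% of all tested genes were higher and 4.88% lower, and these shares are also the background of the marker counts that follow. The other 4, Mrc1, Cd163, Lyve1 and Pf4, did not pass, with log2 changes of 0.14, -0.05, -0.76 and -0.0048. None of the 6 was at 0. Of 10 microglial markers, 5 passed as lower and 0 as higher, with TMM-scaled sums of 56484 and 61257 in WT and 48711 and 49387 in GrnKO, and none of the 5 passed in the authors' scaling. Of 3 monocyte markers, 2 were tested and did not pass, and their TMM-scaled sums, the scale of all marker sums in this paragraph, were 584 and 588 in WT against 463 and 370 in GrnKO. Neuronal markers summed to 214 and 271 in WT and 181 and 152 in GrnKO. Of these Syt1 passed as lower, but not in the authors' scaling (adjusted p = 0.105 in limma). Among 5 oligodendrocyte markers Mbp passed as higher and Mog as lower, with sums of 1958 and 2089 in WT and 2575 and 2714 in GrnKO. Of 5 astrocyte markers none of the 4 tested passed, with sums of 3261 to 3426 in the 4 libraries. Endothelial markers summed to 511 and 446 in WT and 916 and 931 in GrnKO, with Flt1 higher, Cldn5 not passing and Tek without a region. The part of other cell types in the Igf1 result was not tested.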

How the data were processed

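The deposited table gives H3K27ac and input signal in 8 libraries; the authors scaled the tags of each 800 bp region to 10000000 per library, per the file headers. The submitters' processing notes name mm10, Bowtie2, HOMER and DESeq2, without versions. The peak list behind the regions came from ATAC-seq and was named for other knockout lines, per the file headers. Handling of duplicate reads is not given in the sources used here. Whole read ends, 2 per tag, were recovered for 100% of values (within 0.005 scaled tags), which gave the tags for the filter and for edgeR and DESeq2 as alternatives. Reads carried no molecular identifiers, so the floor of 3 tags covers counting error only.

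Groups and replicate numbers came from sample titles. Replicates are pools of different mice, 2 per group, which limits every p-value. The fit was limma 3.58.1 (eBayes with trend) in R 4.3.3 on log2(value + 1) of the 4 H3K27ac libraries after TMM scaling (edgeR 4.0.16; factors 0.825 and 1.04 in WT, 1.08 and 1.08 in GrnKO), with regions kept by filterByExpr at a minimum of 10 tags and Benjamini-Hochberg adjustment at 0.05. Such log2 changes understate the change of low regions. Gene sums, over all regions the table assigns to a gene, had TMM factors of their own. Inputs, and H3K27ac against input, were fitted in the authors' scaling, since TMM assumes that most regions do not differ. DESeq2 1.42.0 was an alternative.

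Same-numbered replicates showed little shared deviation over all regions (correlation 0.03 between genotypes), although their Xist and chromosome Y sums moved together, and the block was kept as an alternative. The H3K27ac and input libraries of a pool had correlations of -0.0084 in WT and 0.0016 in GrnKO. Named are all Igf1 regions, Igf2 and 3 receptors, at most 8 other pathway genes with the smallest p past the threshold, all genes past it within 1 Mb and the nearest on each side, and the 5 genes most like Igf1; any gene named beyond these was picked with its values in view. Some genes that this rule would name are not reported here and are left out of the plots, though they enter the fits and counts. The members and lists were chosen with earlier results of these data known. No genome was used here, so motifs were searched in the RefSeq promoter alone.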

Additional observations from a re-analysis of the deposited data

How the results depend on the processing

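Under the alternatives run, 386 values were recomputed: 334 stayed within the limits set for a like value, 51 moved and 1 reversed. The 240 values of single Igf1 regions were all positive, and 21 of them moved. With the authors' scaling the Igf1 sum changed by 1.86 on the log2 scale, and 333 regions, 166 genes and 1 pathway gene passed as lower. Without a filter on low values 1110 regions passed as lower. Another fit took same-numbered replicates as blocks. The labels tie this number to no shared animal or batch, but the Xist and chromosome Y sums moved with it. In that fit 3988 regions, 1136 genes and 6 pathway genes passed as lower. It had 19 Igf1 regions passing as higher, when 7403 of all regions did, against 5488 in the main fit. With the pool as a block, 16 Igf1 regions in WT and 20 in GrnKO were above input. The share of all regions above input was not computed with this block or with a library left out. In the main fit it was 67.1% in WT and 66.5% in GrnKO, and nothing is read from the counts above input. Of the Igf1 regions, 16 passed in edgeR (4905 of all regions were higher), 15 in DESeq2 (5163) and 17 at a change of at least 2-fold (5.22% of all tested regions). Leaving out 1 library at a time, regions passing ranged from 1810 to 9534 higher and 361 to 4611 lower, and genes from 745 to 2216 higher and 208 to 1224 lower. Pathway genes ranged from 2 to 7 higher and 1 to 5 lower, and genes within 1 Mb from 2 to 7 higher. Igf1 regions ranged from 12 to 21, its sum from 1.53 to 1.83, and its regions above input from 10 to 18 in WT and 13 to 21 in GrnKO. A lone library in a group was assumed to vary like the other genotype's. The Igf1 input change ranged from -2.01 to 0.065, and it reversed to 0.065 without WT replicate 1; the cause was not tested. Depth limits the 4 untested regions and the inputs, where 17.5 to 175 tags lie behind each Igf1 sum.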
